A study of Mus musculus with 79 samples.

Results

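The comparison concerned nuclei of mouse visual cortex in which neurons carrying a Kir2.1 vector (8 libraries) were set against all nuclei without the vector (10 libraries) from cortex that received the same vector. These 18 libraries, chosen by their labels, are part of a series of 79. Every mouse carried 1 copy of INTACT (wt/ki), a Cre-dependent tag of the nuclear envelope, and 1 copy of VIP Cre (wt/ki), which is driven from the Vip gene of a class of interneurons. The vector, AAV-Syn1-Kir2.1-2a-mScarlet-KASH, was given at postnatal day 55 to 60, and dark housing began 3 days later and lasted 10 to 12 days (10 in the treatment label). The Syn1 (synapsin) promoter directs expression to neurons, and the KASH peptide anchors the red protein mScarlet in the nuclear envelope so that nuclei can be sorted. The question set for the series was how much the activity that remains in a dark-housed visual cortex contributes to its gene expression. In mice of the same genotype and housing, 8 libraries of neurons and 9 of all non-transduced nuclei came from cortex given the same vector with a mutant channel, labelled Kir2.1(Mutant), and 3 libraries of all nuclei came from mice with no AAV. Each library held 50 to 100 sorted nuclei. The labels do not say which animals the libraries share, so p-values measure the spread between libraries.

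Kir2.1, encoded by Kcnj2, is an inwardly rectifying potassium channel. More of it holds a neuron's membrane near the potassium equilibrium potential, so that the cell fires less. Firing and calcium entry switch on immediate early genes such as Fos, Egr1 and Nr4a1, many of them through the transcription factor CREB, and later a wider set that includes Bdnf, Pcsk1, Scg2 and Homer1. In the present comparison the 2 groups differed at once in the vector, in its cargo, in the sort and in the mixture of cell types, and these cannot be told apart from the 18 libraries alone. The libraries given the mutant vector share the sort and the promoter, and a test of the difference between the vectors is therefore given beside the results.

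Gene counts per library ranged from 4731547 to 7614657 in the Kir2.1 neurons and from 3261893 to 8784101 in all non-transduced nuclei. Neuron library 10 stood apart: its rank correlation with the median of its group was 0.883, against 0.919 to 0.948 in the other 7. Libraries 1 and 2 of all non-transduced nuclei stood apart by their Kcnj2 level, given below. Levels of Xist and Ddx3y went against the labelled sex in 3 of the 8 neuron libraries and in 3 of the 10 of all nuclei, so labelled sex served as an alternative only. Levels below are CPM, counts scaled to a common library total, on 1 scale for the 38 libraries used, and they are compared between groups of libraries, not between genes.

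Of 16962 genes tested, 374 were higher in the Kir2.1 neurons (2.2%) and 904 were lower (5.33%) at an adjusted p under 0.05 (edgeR's quasi-likelihood test with Benjamini-Hochberg adjustment). The median log2 fold change over all tested genes was 0.015. With a change of at least 2-fold as well, 124 genes were higher (0.731%) and 736 were lower (4.34%). The neuron libraries lay wholly above those of all nuclei for 39 of the tested genes (0.23%) and wholly below them for 271 (1.6%). Without the 3 libraries that stood apart, 341 genes were higher and 930 lower.

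The vector's own gene was the first check of the labels. Kcnj2 (mm10 chr11:111066164-111076821, plus strand) ran from 143 to 1124 CPM in the Kir2.1 neurons, with a median of 403. In all non-transduced nuclei of the same cortices it ran from 7.71 to 155.6 CPM, with a median of 15.8, and in the nuclei without AAV from 3.94 to 7.55. The groups overlapped through neuron library 10, at 143 CPM, and library 1 of all nuclei, at 155.6; library 2 of all nuclei held 70.8. The log2 fold change was 3.96 (SE 0.69, edgeR adjusted p = 0.00097), 4.68 without library 1 of all nuclei and 5.34 without the 3 libraries that stood apart. Libraries 1 and 2 of all nuclei were set apart by this level itself, and neuron library 10 was the lowest neuron library. Leaving them out thus raises the change by construction. The mutant vector gave 172 to 571 CPM in its neurons, and the difference between vectors was -0.73 (SE 0.73, edgeR adjusted p = 0.922). Reads of the vector and of the mouse gene cannot be told apart in the deposited counts.

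Syne2 (mm10 chr12:75818134-76110926, plus strand), which encodes the nuclear envelope protein nesprin-2 with a KASH domain of its own, was also higher. It ran from 47.5 to 151 CPM in the Kir2.1 neurons (median 82.9) and from 7.2 to 32.3 in all non-transduced nuclei (median 19.5), and the groups did not overlap. The log2 fold change was 2.17 (SE 0.27, edgeR adjusted p = 8.3e-07), against 1.71 with the mutant vector, and the difference between vectors was 0.46 (SE 0.36, edgeR adjusted p = 0.858). It was the 1 member to pass among 13 tested genes of the nuclear envelope, with Syne1, the 2 SUN genes and the lamins at log2 fold changes between -0.54 and 0.58 and not past the threshold. Whether reads of the vector's KASH sequence count toward Syne2 was not tested.

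**Figure D1:**
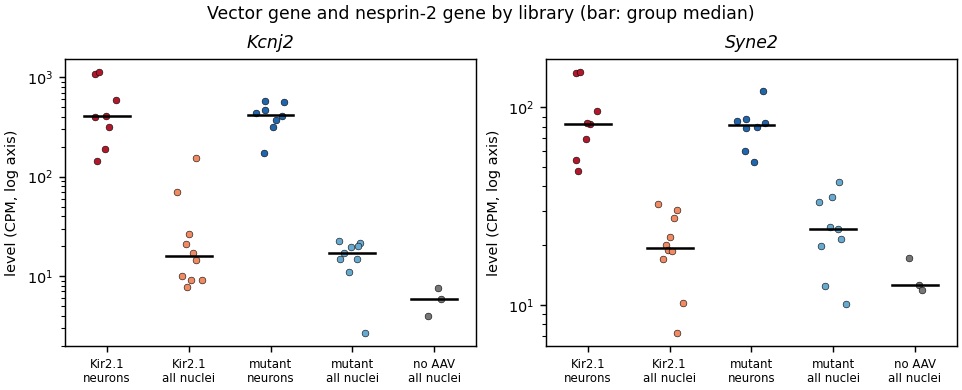
Levels of Kcnj2 and Syne2 in each library (points, CPM on a log axis) in the 5 groups, with a bar at the group median. Both genes are high in the neurons sorted for either vector, and 2 libraries of all nuclei from Kir2.1 cortex, at 155.6 and 70.8 CPM, lie above the others for Kcnj2.

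Oligodendrocyte and microglial transcripts were lower in the transduced neurons. Of 18 oligodendrocyte markers tested, 17 were lower and none higher, with a median log2 fold change of -4.58. Of 18 microglial markers, 16 were lower and none higher, with a median of -3.27. Oligodendrocyte precursor markers were lower for 4 of 7 tested, although their summed level overlapped, at 506.3 to 887.3 CPM in the neurons (median 628.4) and 416.9 to 1161.3 in all nuclei (median 660.7). Astrocyte markers were lower for 4 of 17 (median -1.1). In bulk libraries, fewer nuclei of a type and less RNA per nucleus cannot be told apart. Vascular markers were too rare to judge, since 17 of the 20 listed did not reach the count filter, and the endothelial gene Cldn5 had no count in any Kir2.1 neuron library.

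Mbp, which encodes a main protein of myelin, ran from 95.6 to 150 CPM in the Kir2.1 neurons (median 116) and from 304 to 858 in all non-transduced nuclei (median 477). The groups did not overlap (log2 fold change -2.15, SE 0.20, edgeR adjusted p = 6.9e-09). Mbp was thus reduced but present in every neuron library. Summed over 18 oligodendrocyte genes, the level was 405.5 to 658.6 CPM in the neurons and 1725.3 to 5816.3 in all nuclei. Enpp2 was the 1 tested member that did not pass.

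Csf1r, the receptor that microglia need to survive, ran from 2.79 to 18.7 CPM in the neurons and from 64.2 to 198 in all nuclei (log2 fold change -3.84, SE 0.33, edgeR adjusted p = 2.7e-09). The summed level of 18 microglial genes was 159.7 to 246.5 CPM in the neurons and 783.3 to 1675.6 in all nuclei. Pdgfra, which marks oligodendrocyte precursors, had 1 count over the 8 neuron libraries, in library 10, and its level per count sequenced was 381 times higher in all nuclei (95% interval 68.1 to 15090, counting error only).

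Astrocyte genes changed less evenly. Slc1a3, a glutamate transporter, ran from 10.8 to 77.7 CPM in the neurons and from 28.5 to 126.5 in all nuclei, and its call (log2 fold change -1.09, SE 0.33, edgeR adjusted p = 0.0417) was lost without neuron library 3, 4, 5, 6, 7 or 8 and without library 2, 4, 6 or 10 of all nuclei (edgeR adjusted p 0.0614 to 0.0998). The highest neuron value, 77.7 CPM, was that of library 10. Aldh1l1 was called as well (-1.83, SE 0.52, edgeR adjusted p = 0.0223) but not without library 8 of all nuclei (0.0635). Gpc5 was lower by a log2 fold change of -1.37 (SE 0.21, edgeR adjusted p = 2.8e-05). Aqp4, the water channel of astrocyte end feet, was at 0 to 3.58 CPM against 0 to 17.7 and did not pass (edgeR adjusted p = 0.241). The summed astrocyte level was 396 to 565.2 CPM in the Kir2.1 neurons, 647.1 to 1099.9 in all nuclei and 578.9 to 846.4 in neurons with the mutant vector. Kcnj10, the inward rectifier of astrocytes and oligodendrocytes, was at 0 to 1.61 CPM in the neurons and 1.07 to 37.1 in all nuclei (log2 fold change -4.72, SE 0.84, edgeR adjusted p = 0.0002).

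**Figure D2:**
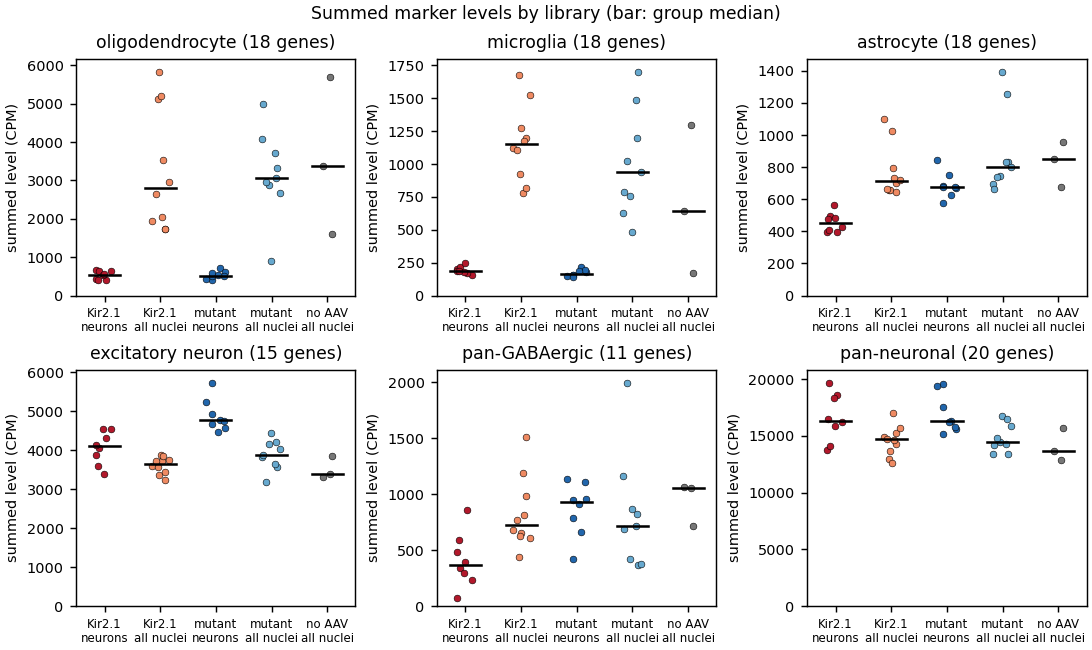
Summed level (CPM, axis from 0) of 6 marker lists in each library (points) of the 5 groups, with a bar at the group median. The oligodendrocyte and microglial sums of both sets of transduced neurons lie below those of every library of all nuclei from injected cortex, while the pan-neuronal sums overlap.

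Neuronal markers differed less than glial ones. Of 20 pan-neuronal genes, 4 were higher and none lower (median log2 fold change 0.32): Nrgn, Syn2, Celf4 and Thy1. Over all tested genes 2.2% were higher and 5.33% lower, the base for this and the other list counts of the Kir2.1 comparison. Slc17a7, the vesicular glutamate transporter of cortical excitatory neurons, ran from 26.9 to 107 CPM in the Kir2.1 neurons (median 66.5) and from 29.9 to 65.5 in all nuclei (median 48.6). It was present in every library, and the groups overlapped (log2 fold change 0.52, SE 0.23, edgeR adjusted p = 0.227). Rbfox3, which encodes NeuN, was at 0.49 (SE 0.21, edgeR adjusted p = 0.201) and Snap25 at -0.24 (SE 0.13, edgeR adjusted p = 0.377). The summed excitatory level was 3396.2 to 4548.9 CPM in the neurons against 3223.7 to 3868.4.

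By cortical layer, upper and deep excitatory markers differed in direction. Of 10 upper-layer genes, 3 were higher and none lower (median 0.42): Cux2 (1.15, SE 0.20, edgeR adjusted p = 0.00013), a transcription factor of layers above the fifth, Calb1 (1.09, SE 0.24, edgeR adjusted p = 0.0021), which encodes calbindin, and Otof (1.08, edgeR adjusted p = 0.00575). Of 15 deep-layer genes, 5 were lower and none higher (median -0.72): Thsd7b, Etv1, Crym, Bcl11b and Tle4. Without the 3 libraries that stood apart, the counts were 4 of 10 higher and 7 of 15 lower. Cux2 ran from 107 to 330 CPM in the Kir2.1 neurons and from 40.3 to 118 in all nuclei, with a small overlap. Thsd7b ran from 25.8 to 66 CPM in the Kir2.1 neurons and from 90.1 to 371 in all nuclei, and Etv1 from 7.38 to 31.7 against 42 to 171. Neither pair of groups overlapped. For Cux2 and Calb1 the log2 fold change with the mutant vector was 0.85 and 0.77, and the difference between vectors did not pass (edgeR adjusted p = 0.918 and 0.92). The mutant vector gave the same directions, with 3 of 10 upper-layer genes higher (median 0.81) and 4 of 15 deep-layer genes lower (median -0.37), Thsd7b among the latter (-0.69, SE 0.15, edgeR adjusted p = 0.0033). None of the 10 upper-layer and 2 of the 15 deep-layer genes passed the test between vectors: Etv1 at -1.96 (SE 0.39, edgeR adjusted p = 0.0054) and Thsd7b at -1.62 (SE 0.28, edgeR adjusted p = 0.00079). Over the 15 the median difference between vectors was -0.15.

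Inhibitory neuron markers were few and variable. Of 7 pan-GABAergic genes tested, 1 was lower and none higher. All 7 had negative log2 fold changes, 6 of them at an unadjusted p under 0.05. Gad1, the main GABA-synthesising enzyme, ran from 25.6 to 53.1 CPM against 27.6 to 108 (log2 fold change -0.63, SE 0.23, edgeR adjusted p = 0.106). The summed pan-GABAergic level was 71.6 to 855.7 CPM in the Kir2.1 neurons, 438.8 to 1508.9 in all nuclei and 424.4 to 1138.6 in the mutant neurons. Of 16 interneuron class genes tested, Prox1 and Adarb2 were lower and 14 did not pass (median log2 fold change -0.29). Prox1 was at 0 to 2.49 CPM against 1.11 to 50.9 (log2 fold change -5.14, SE 0.91, edgeR adjusted p = 0.00042), and at -5.88 without neuron library 6 and -5.91 without neuron library 8. Adarb2 ran from 24.2 to 95.5 CPM against 34.1 to 641 (log2 fold change -1.88, SE 0.47, edgeR adjusted p = 0.0161). With the mutant vector Prox1 was lower as well (-2.17, SE 0.36, edgeR adjusted p = 0.00012), and Adarb2 was at -0.35 (SE 0.60, edgeR adjusted p = 0.902). Neither difference between vectors passed (edgeR adjusted p = 0.115 and 0.643). Sst, at -0.44 (SE 0.65, edgeR adjusted p = 0.834), and Pvalb, at 0.20 (SE 0.51, edgeR adjusted p = 0.917), did not pass, and Vip was below the filter, at 0 to 7.73 CPM in the neurons and 0 to 67 in all nuclei.

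**Figure D3:**
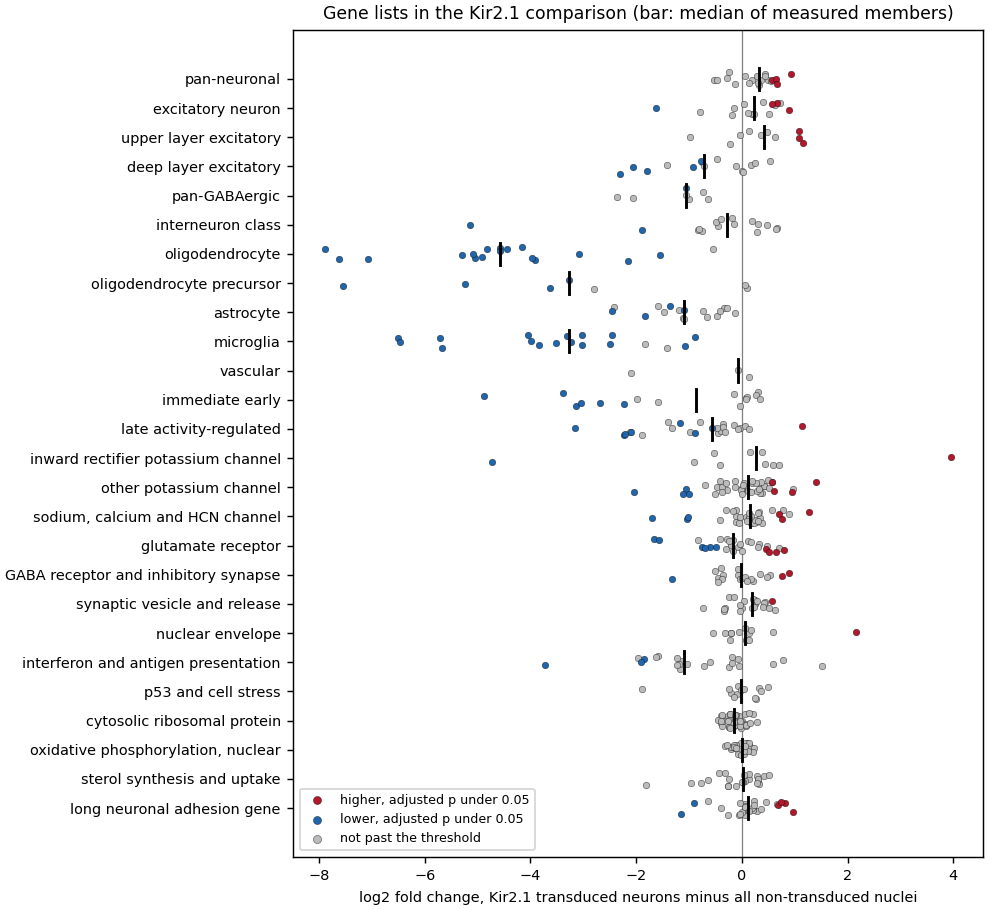
Log2 fold change of every tested member (points) of 26 gene lists between the Kir2.1 neurons and all non-transduced nuclei, coloured by the edgeR call, with a bar at the list median. Oligodendrocyte and microglial genes lie far to the left, with medians of -4.58 and -3.27, while ribosomal and oxidative phosphorylation genes lie around 0.

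Nos1 led the genes that were higher. Nos1 (mm10 chr5:117781032-117958840, plus strand), the neuronal nitric oxide synthase, ran from 72.5 to 141.7 CPM in the Kir2.1 neurons (median 91.5) and from 10.5 to 32.6 in all non-transduced nuclei (median 20.1). The lowest neuron value lay above the highest of all nuclei. The rule for naming the leading higher genes set this condition, so it adds no separate evidence. The log2 fold change was 2.14 (SE 0.21, edgeR adjusted p = 1.3e-08). In neurons with the mutant vector Nos1 was at 4.88 to 22.3 CPM, in their all nuclei at 3.46 to 31, and in nuclei without AAV at 14.6 to 21.9. The difference between vectors was 2.39 (SE 0.45, edgeR adjusted p = 0.0024). The part of the mixture of cell types in these Nos1 levels was not tested.

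Smarca2, an ATPase of the BAF chromatin remodelling complex, ran from 282 to 367.6 CPM in the Kir2.1 neurons. In all nuclei it ran from 112.8 to 197.6 CPM (log2 fold change 1.10, SE 0.13, edgeR adjusted p = 4.1e-07). It passed between vectors too, by 0.81 (SE 0.20, edgeR adjusted p = 0.0409). Sh2d5, an adaptor with an SH2 domain, ran from 42.5 to 80.3 CPM against 12.9 to 34.7 (1.43, SE 0.22, edgeR adjusted p = 2.5e-05) and differed between vectors by 1.42 (SE 0.36, edgeR adjusted p = 0.0421). Nos1 and Sh2d5 were also higher in every Kir2.1 neuron library than in any mutant neuron library, whereas Smarca2 overlapped there.

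Other leading genes rose with Kir2.1 without passing the test between vectors. Rgs6, a regulator of G protein signalling, was at 705.8 to 1275 CPM against 308 to 582.9 (log2 fold change 1.08, SE 0.15, edgeR adjusted p = 5.2e-06), and with the mutant vector its change was 1.03. Gsg1l, an auxiliary subunit of AMPA receptors, was at 89 to 227.1 CPM against 27.3 to 85.9 (1.53, SE 0.22, edgeR adjusted p = 1e-05), and 0.77 with the mutant vector. Robo3, an axon guidance receptor, was at 49 to 110 CPM against 6.77 to 31.4 (1.74, SE 0.24, edgeR adjusted p = 5.9e-06). The mitochondrial gene Aifm3, Ccdc136, the ciliary gene Evc2 and the kinase gene Cdkl1 rose by 1.23, 1.14, 1.48 and 1.29 on the same scale. Their groups do not overlap, again a condition that the naming rule set. Mgat5b, a glycosyltransferase, was at 75.2 to 461.7 CPM against 18.7 to 59.6 (2.00, SE 0.30, edgeR adjusted p = 4.4e-05). Neuron library 10 held the 461.7, the next held 132.9, and without the libraries that stood apart the change was 2.64-fold in place of 4.01-fold.

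The genes that led the lower calls are known from microglia, blood and oligodendrocytes. Fgd2, a guanine nucleotide exchange factor of myeloid cells, had 1 count over the 8 neuron libraries, in library 4, and was at 12.6 to 37.2 CPM in all nuclei, a level 1249 times higher per count sequenced (95% interval 223.9 to 49370). Adap2 had 2 counts in the neurons and was 571.5 times higher in all nuclei (95% interval 157.9 to 4723). Runx1, a blood transcription factor, had 3 counts and was 353.1 times higher (95% interval 120.6 to 1714). These intervals cover counting error only. Fli1, an ETS factor of blood and endothelium, Adgre1, which encodes the macrophage antigen F4/80, and the immune adaptor gene Fyb reached at most 0.54, 0.43 and 2.16 CPM in a neuron library against at least 17.8, 9.19 and 18.4 CPM in all nuclei. Their log2 fold changes were -7.97, -7.24 and -5.94, and those of Fli1 without neuron library 5 and of Adgre1 without neuron library 4 were -8.88 and -7.87. In all nuclei without AAV, Fgd2, Adgre1 and Fyb ran from 0 to 11, 0 to 7.86 and 0.89 to 8.37 CPM. Fli1, Adap2 and Runx1 ran there from 0 to 13.7, 0 to 19.5 and 0.18 to 14.5 CPM. The summed microglial level there was 167.9 to 1298 CPM, against 783.3 to 1675.6 in all nuclei from Kir2.1 cortex. The part of the injection in these ratios was not tested.

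St18, a zinc finger factor on the oligodendrocyte list, was at 0 to 1.61 CPM in the neurons against 51.5 to 351 (log2 fold change -7.89, SE 0.51, edgeR adjusted p = 5.8e-10). Car2, which encodes carbonic anhydrase 2, was at 2.63 to 12.7 CPM against 71.7 to 248 (-3.85, SE 0.28, edgeR adjusted p = 5.6e-11). Dock10, a guanine nucleotide exchange factor, was at 4.16 to 24.9 CPM against 103 to 378 (-3.79, SE 0.29, edgeR adjusted p = 3.6e-10). D7Ertd443e was at 0 to 1.39 CPM against 21.6 to 127, and Agmo, an ether lipid enzyme, at 0 to 0.69 against 13.7 to 40.3. For none of the 12 leading lower genes did the difference between vectors pass (edgeR adjusted p from 0.231 for Fgd2 upward). The groups do not overlap in any of the 12, a condition that the rule for naming them set.

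Of 16 immediate early genes tested, 6 were lower in the Kir2.1 neurons and none higher, with a median log2 fold change of -0.86: Fos, Fosl2, Egr1, Nr4a1, Nr4a2 and Dusp6, the last a phosphatase of the ERK pathway. The median moved with the setting: with no filter on low counts, 5 of 21 were lower at a median of -1.58. With a replicate block, 5 of 15 were lower at a median of -0.175. With the mutant vector, 0 of 19 tested passed the edgeR test in either direction (1 at an unadjusted p under 0.05), where 1.4% of all tested genes were higher and 4.11% lower. There the log2 fold change was 0.03 for Nr4a1 and 0.07 for Egr1. Nr4a1, a nuclear receptor, ran from 0.41 to 6.47 CPM in the Kir2.1 neurons (median 4.13) and from 14.7 to 101 in all non-transduced nuclei (median 30.7). Every neuron library lay below every library of all nuclei (log2 fold change -3.39, SE 0.50, edgeR adjusted p = 2.3e-05). Mutant neurons were at 11.2 to 85.3 CPM and their all nuclei at 20.9 to 73.1, and the difference between vectors was -3.43 (SE 0.62, edgeR adjusted p = 0.0024). Nr4a1 was the 1 immediate early gene whose difference between vectors passed, where 0.513% of all genes tested were called negative.

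Egr1, a zinc finger factor, ran from 0.18 to 9.5 CPM in the Kir2.1 neurons (median 3.41) and from 0.82 to 49.1 in all nuclei (median 19), where library 10 of all nuclei, at 0.82, was the 1 below 8.98. The log2 fold change was -2.23 (SE 0.56, edgeR adjusted p = 0.0085). The difference between vectors was -2.30 (SE 0.70, edgeR adjusted p = 0.16), although the Kir2.1 neurons all lay below the mutant neurons, which ran from 19.5 to 73.2 CPM. Fos was at 0 in 6 of the 8 Kir2.1 neuron libraries, at 0.46 in library 3 and at 2.33 in library 5, against 0 to 44.5 in all nuclei (log2 fold change -4.88, SE 1.15, edgeR adjusted p = 0.0056). It was -6.94 without neuron library 5 and -4.25 without library 5 of all nuclei. Arc, which acts at synapses, ran from 0 to 35.2 CPM against 6.88 to 123 and did not pass (-1.99, SE 0.83, edgeR adjusted p = 0.194). Npas4 was below the filter, with 2 counts over the 8 neuron libraries and 0 to 7.46 CPM in all nuclei.

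Of 25 later activity-regulated genes tested, 7 were lower and 1 was higher, with a median of -0.56. With the mutant vector, 0 of 25 were lower in the edgeR test (0 also at an unadjusted p under 0.05) and 1 was higher. Bdnf, a growth factor of neurons, ran from 0 to 11.3 CPM in the Kir2.1 neurons (median 4.15) and from 11 to 33.5 in all nuclei (median 18.7). Neuron library 5, at 11.3, was the 1 that reached the lowest library of all nuclei (log2 fold change -2.24, SE 0.56, edgeR adjusted p = 0.0086). Homer1, a postsynaptic scaffold gene, was at -0.56 (SE 0.16, edgeR adjusted p = 0.0231), a call lost without neuron library 3 or 5 and without library 5 or 6 of all nuclei (edgeR adjusted p 0.0507 to 0.0549), and without the libraries that stood apart (0.0585). The neuropeptide precursors Vgf and Scg2 fell by 2.09 and 1.16 on the log2 scale (edgeR adjusted p = 0.0284 and 0.0106), and the chromatin factor gene Baz1a fell by 3.16 (edgeR adjusted p = 0.0332).

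Pcsk1, which encodes the prohormone convertase that cleaves such precursors, ran from 2.15 to 11.2 CPM in the Kir2.1 neurons (median 6.67) and from 15.9 to 51.4 in all non-transduced nuclei (median 32.2). It did not overlap (log2 fold change -2.22, SE 0.34, edgeR adjusted p = 2.4e-05). In mutant neurons it was at 24.7 to 98.2 CPM and higher than in their all nuclei by 0.77 (SE 0.23, edgeR adjusted p = 0.0495). The difference between vectors was -2.99 (SE 0.40, edgeR adjusted p = 3e-05). Mlip, which encodes a lamin-interacting protein first known from muscle, ran from 58.2 to 104 CPM against 92.8 to 232 (-0.88, SE 0.17, edgeR adjusted p = 0.00052) and differed between vectors by -1.39 (SE 0.26, edgeR adjusted p = 0.002). Nptx1, which encodes the synaptic pentraxin neuronal pentraxin 1, went the other way, at 180 to 417 CPM against 70.8 to 168 without overlap (1.15, SE 0.18, edgeR adjusted p = 4.9e-05), with a difference between vectors of 1.03 (SE 0.26, edgeR adjusted p = 0.0466). That difference was not called under every scaling, nor without the libraries that stood apart. Nptx2, a relative of Nptx1, was below the filter, at 0 to 0.69 CPM in the Kir2.1 neurons, 0 to 6.91 in their all nuclei and 0.74 to 9.43 in mutant neurons.

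The 250 bases before the annotated start of the 3 activity-regulated genes that fell and also differed between vectors are shown because CREB binds the cyclic AMP response element, TGACGTCA, or its core TGACG. Sequences are from RefSeq, GRCm38.p6, on the strand of the gene, at chr15:101266596-101266845 (plus) for Nr4a1, chr13:75089607-75089856 (plus) for Pcsk1 and chr9:77347871-77348120 (minus, the first of 2 listed starts) for Mlip. Capitals mark TGACG or CGTCA, its form on the other strand.
Nr4a1: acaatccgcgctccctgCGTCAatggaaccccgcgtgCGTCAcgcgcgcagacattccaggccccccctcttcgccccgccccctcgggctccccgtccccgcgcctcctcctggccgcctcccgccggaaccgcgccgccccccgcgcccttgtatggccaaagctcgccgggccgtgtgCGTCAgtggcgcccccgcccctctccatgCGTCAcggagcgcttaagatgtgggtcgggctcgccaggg
Pcsk1: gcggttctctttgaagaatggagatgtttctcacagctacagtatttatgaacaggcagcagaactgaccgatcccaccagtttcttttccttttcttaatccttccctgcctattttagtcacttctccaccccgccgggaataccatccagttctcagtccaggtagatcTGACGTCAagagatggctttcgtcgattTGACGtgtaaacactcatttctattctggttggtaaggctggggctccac
Mlip: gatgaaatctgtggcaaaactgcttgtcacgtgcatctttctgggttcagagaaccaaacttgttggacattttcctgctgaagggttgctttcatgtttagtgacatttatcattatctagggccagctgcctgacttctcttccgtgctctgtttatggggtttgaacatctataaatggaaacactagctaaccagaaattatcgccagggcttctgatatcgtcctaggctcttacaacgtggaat
Nr4a1 held the core 4 times, as did 0.138% of 32536 distinct promoter windows of this length at that number or more. Pcsk1 held 3 matches, 2 of them overlapping in 1 full element, which 1.56% of windows held; 0.695% had at least 3 matches. Mlip held none, like 82.1% of windows. A match is a description of the letters only, and binding was not measured.

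**Figure D4:**
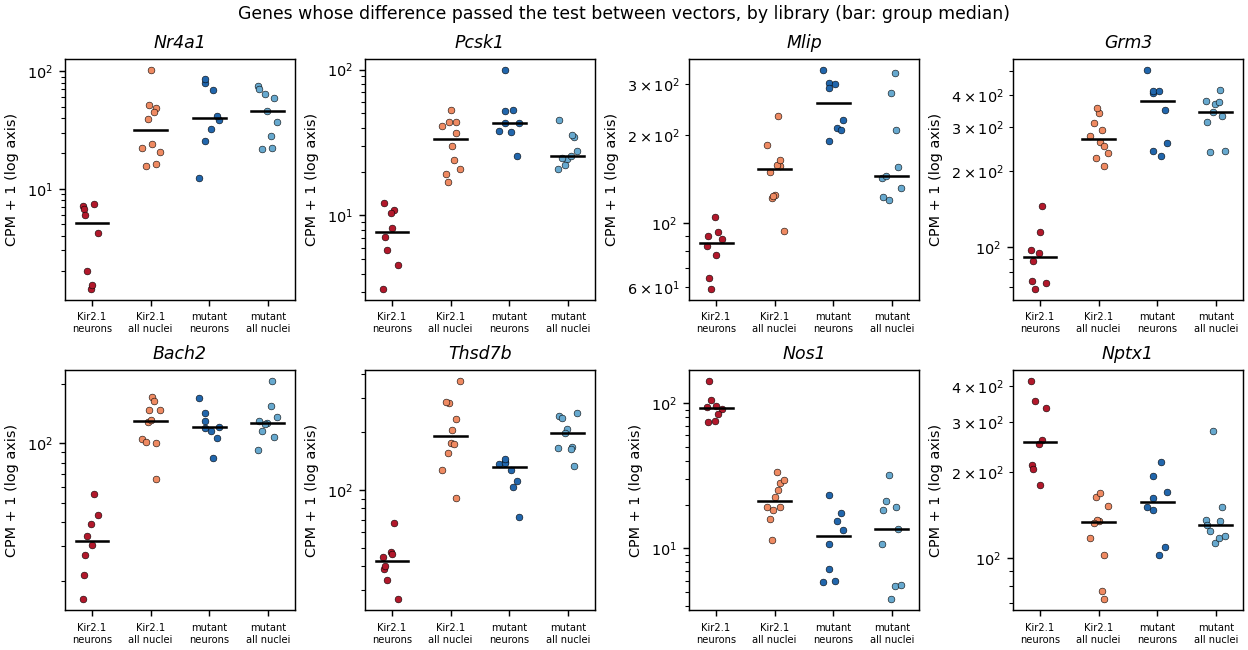
Levels in each library (points, CPM plus 1 on a log axis) of 8 genes whose difference between vectors passed the edgeR test, in the 4 groups from injected cortex, with a bar at the group median. The Kir2.1 neurons lie apart from the other 3 groups for Nr4a1, Pcsk1, Grm3, Bach2, Thsd7b and Nos1.

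Between the vectors, 27 genes had a more positive contrast with Kir2.1 (0.14% of 19304 tested) and 99 a more negative one (0.513%). Of these 126 genes (0.653%), 89 were called in the Kir2.1 comparison, 38 in the mutant comparison and 12 in neither. The count of positive genes was 16 without neuron library 5, without library 2 of all nuclei or without mutant neuron library 9. Of the genes called lower with Kir2.1 and tested with both vectors, 479 of 844 (56.8%) were also lower with the mutant vector, and these made up 71.9% of the 666 lower there. Of those called higher, 48 of 371 (12.9%) were also higher with the mutant vector, or 20.6% of the 233 there. Called or not, 314 of the 371 had a positive log2 fold change with the mutant vector. Of the 844, 750 had a negative one there. The 2 sets of neurons also differed in marker levels: the summed excitatory level ran from 3396.2 to 4548.9 CPM in Kir2.1 neurons, against 4464.9 to 5717.6 in mutant neurons, and the astrocyte and pan-GABAergic sums had lower medians with Kir2.1 (450.2 against 677.9 CPM and 367 against 930.6 CPM). The part of these levels in the differences between vectors was not tested. Over 16099 genes tested in both, which share no library, the log2 fold changes had a Pearson correlation of 0.723, given as a description across genes.

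**Figure D5:**
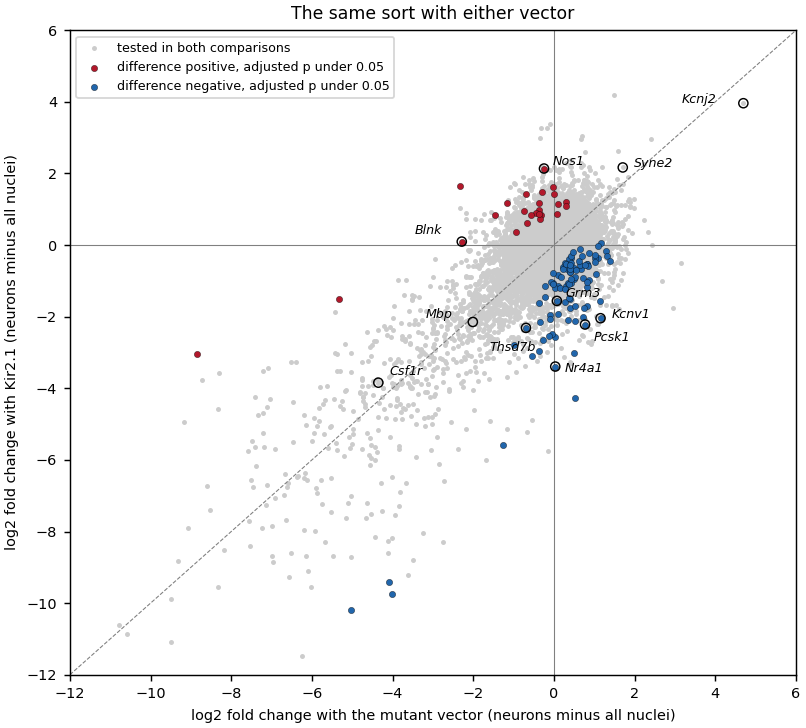
Log2 fold change of transduced neurons against all non-transduced nuclei with Kir2.1 (vertical) and with the mutant vector (horizontal) for 16099 genes, with equality dashed, named genes ringed and the genes called in the edgeR test between vectors in colour. Mbp and Csf1r lie near the dashed line, while Pcsk1, Nr4a1 and Nos1 change with Kir2.1 and lie off it.

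Genes with a negative difference included receptors and transcription regulators. Grm3, a metabotropic glutamate receptor, ran from 67.6 to 144 CPM in the Kir2.1 neurons, from 208 to 357 in their all nuclei and from 228 to 502 in mutant neurons (difference between vectors -1.63, SE 0.22, edgeR adjusted p = 3e-05). Bach2, a transcription repressor, ran from 15.2 to 54.2, 65.3 to 172 and 82.9 to 169 CPM in the same order (-1.85, SE 0.27, edgeR adjusted p = 7.7e-05). Samd4, an RNA-binding regulator of translation, ran from 2.6 to 20.9, 16.3 to 64.3 and 53.2 to 108 CPM (-2.72, SE 0.38, edgeR adjusted p = 4.1e-05). In each of the 3 the Kir2.1 neurons lay below every mutant neuron library. The 3 were picked by the test between vectors, which uses these same libraries, and the share of all genes so separated was not counted. Trhde, a peptidase that degrades thyrotropin-releasing hormone, the zinc finger repressor Trps1 and R3hdm1 differed by -1.87, -1.86 and -1.14. Neurod6, a transcription factor of excitatory neurons and the 1 excitatory marker that was lower (-1.63, SE 0.22, edgeR adjusted p = 6e-06), differed by -1.24 (SE 0.31, edgeR adjusted p = 0.0421). This difference of Neurod6 was not called under every scaling, nor without the libraries that stood apart.

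Genes with a positive difference did not all rise in the Kir2.1 neurons. Blnk, an adaptor first known from B cells, was at 23.6 to 54.6 CPM in the Kir2.1 neurons and 23.1 to 42.7 in their all nuclei (log2 fold change 0.10, SE 0.22, edgeR adjusted p = 0.905), but at 5.11 to 21.8 in mutant neurons and 27.8 to 83.2 in theirs. Its difference between vectors was 2.38 (SE 0.37, edgeR adjusted p = 0.00019). Ankub1 was lower with both vectors, at 0 to 7.21 CPM in the Kir2.1 neurons and 0 to 0.11 in mutant neurons, against 3.03 to 35 and 2.59 to 36.8. Its change with Kir2.1 was -3.05 (SE 0.73, edgeR adjusted p = 0.0062), and -3.79 without neuron library 9.

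Zfhx2, a homeobox factor, did rise, at 60.4 to 195 CPM against 44.9 to 107 (0.94, SE 0.20, edgeR adjusted p = 0.0021), with 30.3 to 54.2 in mutant neurons. Kif26b, a kinesin, was at 82.8 to 136 CPM against 19.5 to 85.4 (1.47, SE 0.23, edgeR adjusted p = 3e-05), and the adhesion gene Cdh13 at 299 to 844 against 140 to 282 (0.97, SE 0.19, edgeR adjusted p = 0.0005). Lztr1, an adaptor of a ubiquitin ligase, rose by 0.84 and the imprinted gene Nnat by 1.17, and the call of Nnat was lost without neuron library 10 (0.89, edgeR adjusted p = 0.0803).

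Potassium channel genes changed in both directions. Of 41 outside the inward rectifiers, 4 were higher and 4 lower (median 0.13), or 19.5% called, against 7.53% of all tested genes. Kcnt1, a sodium-activated channel, was at 98.3 to 290 CPM against 49.5 to 140.9 (log2 fold change 1.39, SE 0.20, edgeR adjusted p = 1.3e-05). Kcnn2, a calcium-activated channel, was at 81.4 to 138 CPM against 170 to 326 without overlap (-1.12, SE 0.16, edgeR adjusted p = 1.3e-05). Kcnv1, a silent subunit that modifies other channels, ran from 0 to 23.9 CPM against 14.9 to 80.7 (-2.04, SE 0.48, edgeR adjusted p = 0.007), and was higher than in all nuclei with the mutant vector (1.16, SE 0.29, edgeR adjusted p = 0.0115). Its difference between vectors was -3.20 (SE 0.59, edgeR adjusted p = 0.0025). Of 10 inward rectifier genes tested, Kcnj2 and Kcnj10 included, 8 did not pass, at log2 fold changes from -0.91 to 0.71.

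Of 33 sodium, calcium and HCN channel genes, 3 were higher and 3 lower (median 0.16), or 18.2% called, against 7.53% of all tested genes. Cacna1g, a low-voltage-activated calcium channel, was at 45.4 to 104 CPM against 17.5 to 58.7 (1.28, SE 0.21, edgeR adjusted p = 9.6e-05), and Cacna1c, an L-type channel, rose by 0.69 (SE 0.16, edgeR adjusted p = 0.0039). Fgf13, which binds sodium channels inside the cell, was at 22.2 to 112 CPM against 82 to 232 (-1.70, SE 0.28, edgeR adjusted p = 0.00013) and differed between vectors by -2.22 (SE 0.42, edgeR adjusted p = 0.004).

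Glutamate receptor genes were divided as well, with 4 higher and 6 lower of 27 (median -0.17), 2 and 7 without the libraries that stood apart. Grid1, a delta receptor, rose by 0.51 (SE 0.14, edgeR adjusted p = 0.0142). Grm3 fell by 1.56 (SE 0.16, edgeR adjusted p = 4.8e-08), and Grik1, a kainate receptor, was at 15.2 to 94.4 CPM against 84.2 to 320.5 (-1.66, SE 0.31, edgeR adjusted p = 0.00068). Of 20 genes of GABA receptors and inhibitory synapses, Slc12a5, the chloride exporter KCC2, and Gabbr2, a GABA-B receptor, were higher (0.89 and 0.75, SE 0.19 and 0.16), and Gabra5 was lower, at 17.9 to 52.4 CPM against 49.7 to 113.3 (-1.33, SE 0.20, edgeR adjusted p = 2.3e-05). Of 22 synaptic vesicle genes 1 was higher, Syn2. The shares called were 37% of the glutamate receptor, 15% of the GABA and 4.5% of the vesicle genes, against 7.53% of all tested genes.

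In the lists of housekeeping and stress genes no member passed. None of 40 cytosolic ribosomal protein genes (median -0.14), 28 nuclear genes of oxidative phosphorylation (median 0), 23 of sterol synthesis (median 0.03) or 13 of p53 and cell stress (median -0.02) was called by edgeR, which called 7.53% of all genes. At an unadjusted p under 0.05 there were 0, 0, 4 and 1 of them, and DESeq2 called 0, 0, 1 and 0. In the interferon and antigen presentation list, 3 of 22 were lower and none higher. H2-D1, a class I histocompatibility gene, was at 40 to 154.8 CPM against 128.8 to 444 (-1.91, SE 0.29, edgeR adjusted p = 5.5e-05). H2-K1 (-1.85) is a close relative of H2-D1, so reads may be shared between them, and Nlrc5, their transactivator, was at 0 to 5.97 CPM against 1.38 to 42.4 (-3.72, SE 0.82, edgeR adjusted p = 0.0032), or -4.57 without neuron library 6. In all nuclei without AAV, H2-D1 was at 19.7 to 62.2 CPM and Nlrc5 at 0 to 0.53. The parts of cell make-up and of the injection in these levels were not tested.

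Long genes made up a larger share of the calls than of the genes tested, in both directions. Genes spanning at least 100 kb made up 14.5% of 16940 tested genes with a known span, 35.6% of the 374 higher and 37.9% of the 903 lower, and the median spans were 21.9, 52.6 and 57.4 kb. Of 28 long adhesion genes, 4 were higher and 2 lower. Among all 2459 tested genes of at least 100 kb, 133 were higher and 342 lower. Ntm and Tenm4 were higher without overlap, at 2053 to 3533 CPM against 1183 to 1751 (0.81, SE 0.12, edgeR adjusted p = 2.4e-05) and at 985 to 1722 against 648.4 to 869.2 (0.74, SE 0.13, edgeR adjusted p = 0.00014). Csmd3 was lower without overlap, at 263.2 to 428.5 CPM against 430.6 to 913.8 (-0.90, SE 0.15, edgeR adjusted p = 6.3e-05). Lsamp fell by 1.16 (SE 0.19, edgeR adjusted p = 6e-05), and its groups overlapped.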

How the data were processed

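RNA of 50 to 100 sorted nuclei per library was copied from an oligo-dT primer, amplified by 17 PCR cycles and made into libraries with Nextera XT, a kit that does not mark strand, per the labels' protocols. The authors deposited raw counts per gene (55335 genes, 79 libraries). Per the submitters' processing notes, the tools included STAR 2.5.3a, cutadapt 1.18 and HOMER 4.9.1, with mm10 as the build; counting settings and annotation are not given in the sources used here. Of the gene IDs, 55154 matched GENCODE vM21, and the other 181 held 0.0264% of counts. The spike-ins named in the protocol were not used here. Reads of overlapping genes cannot be told apart.

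From these counts, edgeR 4.0.16 (R 4.3.3) gave TMM factors over 38 libraries, kept genes by filterByExpr (minimum count 10, total 15) and fitted robust quasi-likelihood models, 1 for the 18 libraries, 1 for the 17 of the mutant vector and 1 for the difference between vectors over all 35. Tests were two-sided with Benjamini-Hochberg adjustment, threshold 0.05. Simulated data with known changes were tested first: over 16198 genes, 29% of 2-fold and 64% of 4-fold changes in the Kir2.1 comparison were recovered. Named genes were the 12 higher and 12 lower by smallest p among those called, 2-fold and not overlapping, 8 in each direction between vectors, 2 per list and direction, and a set of 24 fixed genes; predicted genes were left out, and a few genes that the rule names are not reported here. The members and lists were chosen with earlier results of these data known, and other list members named were chosen after their values were seen. Alternatives were other scalings, no filter, DESeq2 1.42.0, labelled sex, a replicate block, each library left out and, chosen after seeing the data, the 3 libraries that stood apart left out.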

Additional observations from a re-analysis of the deposited data

Results flagged for a closer look

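Single libraries lay far from the rest of their group, on the log2(CPM + 1) scale by Dixon's test, for 18 of 185 combinations of a named gene and a Kir2.1 group examined; chance alone marks about 1 in 20. Neuron library 10 held 4 of them. It was the highest for Mgat5b (461.7 CPM, the next at 132.9), for Nrgn, which encodes the calmodulin-binding protein neurogranin (690.1, the next at 269.7), and for Pdgfra (0.219, the others at 0), and the lowest for Dock10 (4.16, the next at 13.6). Neuron library 8 was the highest for Fgf13 (111.6, the next at 45.9). Neuron library 5 was the highest for Fos (2.33) and Fli1 (0.538). Neuron library 9 had no count of Kcnv1 (0, the next at 4.82). Among genes near the limit of detection, neuron library 4 held the 1 count of Fgd2 (0.144 CPM), neuron library 6 the highest Npas4 (0.332) and neuron library 7 the highest Vip (7.73, the next at 1.44).

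In all non-transduced nuclei, library 10 was the lowest for Neurod6 (37.6 CPM, the next at 52.1) and for Egr1 (0.818, the next at 8.98). Library 3 was the lowest for the astrocyte gene Gpc5 (71.4, the next at 120.7) and the highest for Kcnt1 (140.9, the next at 77.8). Library 4 was the lowest for Robo3 (6.77, the next at 15), library 5 the lowest for Cux2 (40.3, the next at 79.4), and library 1 the highest for Cldn5 (0.827, the others at 0). The log2 fold changes of Mgat5b, Fos and Fli1 without these libraries are given with the genes. Without the library of its 1 count, the fitted log2 fold change went from -7.54 to -8.63 for Pdgfra and from -9.28 to -10.28 for Fgd2; with no count left in the neurons these values depend on the fit's prior count.

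The contrast of neurons with all nuclei differed between the Kir2.1 and the mutant vector by edgeR's test of the difference for 27 genes in the positive and 99 in the negative direction. Among named genes the positive differences, on the log2 scale, were 5.80 for Ankub1, whose mutant neurons were near 0, 2.39 for Nos1, 2.38 for Blnk, 2.33 for Nnat, 1.77 for Kif26b, 1.68 for Zfhx2, 1.42 for Sh2d5, 1.36 for Cdh13, 1.16 for Lztr1, 1.03 for Nptx1 and 0.81 for Smarca2. The negative ones were -3.43 for Nr4a1, -3.20 for Kcnv1, -2.99 for Pcsk1, -2.72 for Samd4, -2.22 for Fgf13, -1.96 for Etv1, -1.87 for Trhde, -1.86 for Trps1, -1.85 for Bach2, -1.63 for Grm3, -1.62 for Thsd7b, -1.39 for Mlip, -1.24 for Neurod6 and -1.14 for R3hdm1. Without neuron library 9 the difference of Ankub1 was 5.06, and without mutant neuron library 6 it was 6.74.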

How the results depend on the processing

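The Kir2.1 comparison counted 347 to 401 genes higher and 886 to 929 lower under 3 other scalings. With no filter on low counts, 34500 genes were tested and 1042 were higher and 1522 lower, which moved the higher share of calls from 29.3% to 40.6%; between vectors the counts were then 239 positive and 329 negative, with the positive share at 42.1% against 21.4%. DESeq2 gave 469 and 1199 in the Kir2.1 comparison and 59 and 167 between vectors, with 7 in place of 4 astrocyte, 5 in place of 3 interferon, 2 in place of 1 pan-GABAergic and 4 in place of 2 long adhesion genes lower. Leaving out 1 library at a time gave 308 to 388 higher and 785 to 974 lower, and 16 to 32 positive and 75 to 111 negative between vectors. The cause of these shifts was not tested. Same-numbered libraries of the Kir2.1 groups deviated together with correlations of 0.009 to 0.189, and 5 of 8 matched best with their own number. Xist and Ddx3y gave the same pattern in 8 of 8 same-numbered pairs with either vector, a hint from the data that a number may stand for 1 animal. The labels do not state this, and the fits without a block are the ones reported. A replicate block gave 534 higher and 1003 lower, and between vectors 60 positive and 235 negative; under it Arc passed (-3.02, edgeR adjusted p = 0.0075), Aldh1l1 did not (0.0522), and nor did Cdh13 between vectors (0.133). The block also moved the log2 fold change of Prox1 to -6.58, of Kcnj10 to -5.69, of Ankub1 to -3.85 and of Kcnj2 to 5.01, and the median of the microglial genes to -4.03 and of the immediate early genes to -0.175 (5 of 15 lower). Of 89 named genes tested in the Kir2.1 comparison, no alternative reversed the direction of 1 that was called, and 4 lost their call under at least 1 alternative: Slc1a3, Homer1, Aldh1l1 and Nnat. Slc1a3 also lost it with no filter, and Homer1 in the fit of 35 libraries (0.0512). Between vectors, the 16 leading genes were followed by name, and of these only Cdh13 lost its call, under the block. Outside them, the calls of Nptx1 and Neurod6 between vectors were lost without the libraries that stood apart. Depth and the number of nuclei limit the rarest transcripts: Npas4, Vip and Nptx2 missed the filter of the Kir2.1 comparison and did not pass between vectors (edgeR adjusted p = 0.3075, 0.992 and 0.355), and Cldn5 missed it in every comparison.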

Other observations

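Outside the named genes, the difference between vectors also passed for list members that did not pass in the Kir2.1 comparison itself, chosen after their values were seen. The potassium channel gene Kcnh5 was at a log2 fold change of 0.04 with Kir2.1 and 1.16 with the mutant vector (difference -1.11, edgeR adjusted p = 0.0466). Gabra4, a subunit of GABA-A receptors, was at -0.45 and 0.62 (-1.06, edgeR adjusted p = 0.0208), Gria3, an AMPA receptor subunit, at -0.30 and 0.42 (-0.72, edgeR adjusted p = 0.0466), and Syne1, which encodes nesprin-1, at -0.20 and 0.48 (-0.68, edgeR adjusted p = 0.0152). Kcnk2, a two-pore potassium channel, did pass with Kir2.1 (-1.05, edgeR adjusted p = 0.0259) and differed by -1.48 (edgeR adjusted p = 0.0374). Without the libraries that stood apart, Gabra4 and Gria3 lost their calls between vectors. Of the potassium channel genes outside the inward rectifiers, 1 was then called negative, against 3 with all libraries.

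Within the Kir2.1 neurons, Arc was at 23.1, 35.2 and 21.9 CPM in libraries 3, 4 and 5 and at 0 to 3.84 CPM in the other 5. The same 3 libraries held the highest Kcnj2 levels, at 1079, 1124 and 584 CPM, against 143 to 407 in the others, and libraries 3 and 5 held the only counts of Fos. Nr4a1 did not share this order, with 6.13, 1.01 and 3.23 CPM in those 3 libraries and 0.41 to 6.47 in the others. These groups of libraries were seen in the data, and no test was made between them.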
